A study of Rattus norvegicus with 4 samples.

Results

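Genes of cholesterol and fatty acid synthesis, with their regulators and a few lipid carriers, were examined in the telencephalon of homozygous Pax6 mutant and wild-type rat embryos. The genes were taken from a list of 37 by symbol: a gene counted where the array had a probe set annotated with that symbol alone. This held for 36 of the 37 genes, which had 63 probe sets, and Hmgcs1 was not analysed here. All 36 passed the filter on dim probe sets and stand among 9840 tested genes in all. The arrays of homozygous Pax6 mutants (rSey2/rSey2) numbered 2, and those of wild-type rats also 2. Both genotypes were on a Sprague-Dawley background at E11.5, counted from midday of the plug as E0.5, and the telencephalon was dissected. According to the design text, 13 telencephalons were used and the experiment was done 2 times per genotype, so the RNA on an array is a pool of embryos. No label gives the litter of a pool, and the p-values therefore cover no more than the array-to-array spread, which may be partly technical. In such bulk tissue, fewer cells that express a gene and less RNA per cell cannot be told apart.

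Cells build cholesterol from acetyl-CoA. The mevalonate arm makes isoprenoid units, squalene synthase joins them, and a chain of microsomal enzymes turns lanosterol into cholesterol. Fatty acids are built from the same acetyl-CoA by acetyl-CoA carboxylase and fatty acid synthase, then elongated and desaturated. The SREBP transcription factors drive both branches. SCAP escorts them out of the endoplasmic reticulum, and the INSIG proteins hold them back when sterols are plentiful. Neural progenitors need cholesterol for their membranes and for Hedgehog signalling, and human mutations in DHCR7 cause a syndrome with brain malformations.

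The values are GCRMA values on the log2 scale, so a difference of 1 is a 2-fold difference, and all differences are mutant minus wild type. Each gene is represented by its brightest probe set, and levels of different probe sets are not set against each other. The median of each array over all tested probe sets was 8.22 and 8.35 in the mutant and 8.24 and 8.33 in wild type. The genotype labels are not checked by Pax6 itself, whose probe set read 11.78 and 11.63 in the mutant and 11.75 and 11.85 in wild type. Fabp7, a fatty acid binding protein gene known to depend on Pax6, read 4.89 and 4.56 in the mutant and 11.83 and 12.15 in wild type, the direction that the labels give (limma adjusted p = 0.196). Summed linear values of marker genes differed between the genotypes for several cell types. Such sums mostly follow their brightest genes: Hbe1 and Hbz for red cells, Sox2 and Lhx2 for the telencephalon and Col3a1 for mesenchyme. The sum over 9 red cell genes (7 higher, 2 lower) was 87407 and 87446 in the mutant and 76553 and 78109 in wild type. For 9 endothelial genes it was 3783 and 4370 in the mutant and 3437 and 3432 in wild type, with all 9 higher in the mean and 4 of them without overlap. The sum over 7 telencephalic and progenitor genes (6 higher, 1 lower) was 31535 and 28957 in the mutant and 25897 and 25729 in wild type. For mesenchyme (10 genes, of which Dcn was dim, 4 were higher and 5 lower) it was 7224 and 8407 in the mutant and 8783 and 8655 in wild type. For surface ectoderm (7 genes, of which Krt5 and Krt14 were dim, 1 was higher and 4 lower) it was 615 and 690 in the mutant and 822 and 671 in wild type. Of 10 macrophage genes, 8 were dim, among them Csf1r, Aif1 and Ptprc, 2 were lower, and the sum was 85.8 and 78.3 in the mutant and 85.8 and 80.6 in wild type. The part of these differences in the results below was not tested.

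Most of the lipid synthesis genes were slightly lower in the mutant arrays, and none passed the test over all probe sets. The mean was lower in the mutant for 27 of the 36 genes (75%), against 49.4% of all tested genes, and higher for 9, against 49.9%. The median difference was -0.12, against 0 over all tested genes. It was -0.20 when wild-type replicate 1 was left out and -0.07 when wild-type replicate 2 was. Both mutant arrays lay below both wild-type arrays for 14 genes (38.9%), where 12.1% of all tested genes did. Both lay above for Fasn and Abca1 alone, where 12.2% of all tested genes did. With a difference of at least 0.2 as well, 10 genes lay below, against 5.19% of all tested genes, and 2 above, against 6.16%. In limma, 0 of the 36 genes passed an adjusted p of 0.05 (0% of all 9840 genes passed). The smallest adjusted p among the 36 was 1, and 3 genes were lower with an unadjusted p under 0.05, against 1.81% of all tested genes. None was higher with such a p, against 1.78%. Genes of one pathway can move together within an array, so these counts are not 36 separate observations.

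**Figure D1:**
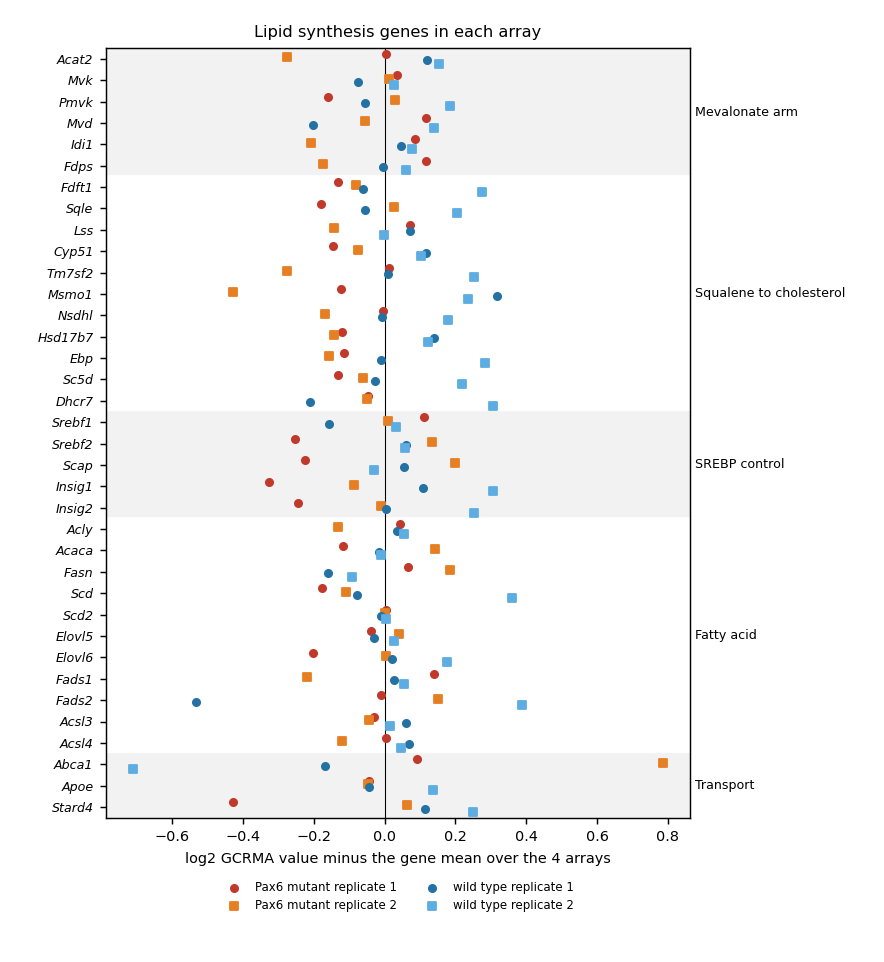
Log2 GCRMA value of each gene in each array after subtraction of the gene's mean over the 4 arrays (horizontal axis), with genes ordered by role. Red and orange points are the Pax6 mutant arrays and blue points the wild-type arrays; wild-type replicate 2 was the highest of the 4 arrays in 19 of 36 genes.

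The arrays did not contribute equally. Wild-type replicate 2 was the highest of the 4 arrays for 19 of the 36 genes (52.8%), against 27.8% of all tested genes without ties. Mutant replicate 1 was below wild-type replicate 1 for 20 genes (55.6%), against 48.2% of all tested genes. Mutant replicate 2 was below wild-type replicate 2 for 30 genes (83.3%), against 48% of all tested genes. The crossed pairings gave 28 genes for mutant replicate 1 below wild-type replicate 2 (77.8%, against 58.1%) and 22 for mutant replicate 2 below wild-type replicate 1 (61.1%, against 39.4%). The mutant was thus more often the lower one in all 4 pairings, least so between the arrays numbered 1.

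The precision of the comparison bounds what could be seen. The standard error (SE) of the difference ran from 0.07 to 0.37 among the 36 genes, with a median of 0.13. The 95% interval lay within 1 on the log2 scale, that is within a 2-fold difference either way, for 33 genes. It reached past 1 for Fads2, Abca1 and Stard4. For 33 genes the interval held 0, and the exceptions were Msmo1, Hsd17b7 and Cyp51. With 1 array left out, the difference moved by over 1.5 times or changed sign for 30 of the 36 genes. It stayed within 1.5 times for Msmo1, Hsd17b7, Cyp51, Insig1, Fasn and Acsl3.

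**Figure D2:**
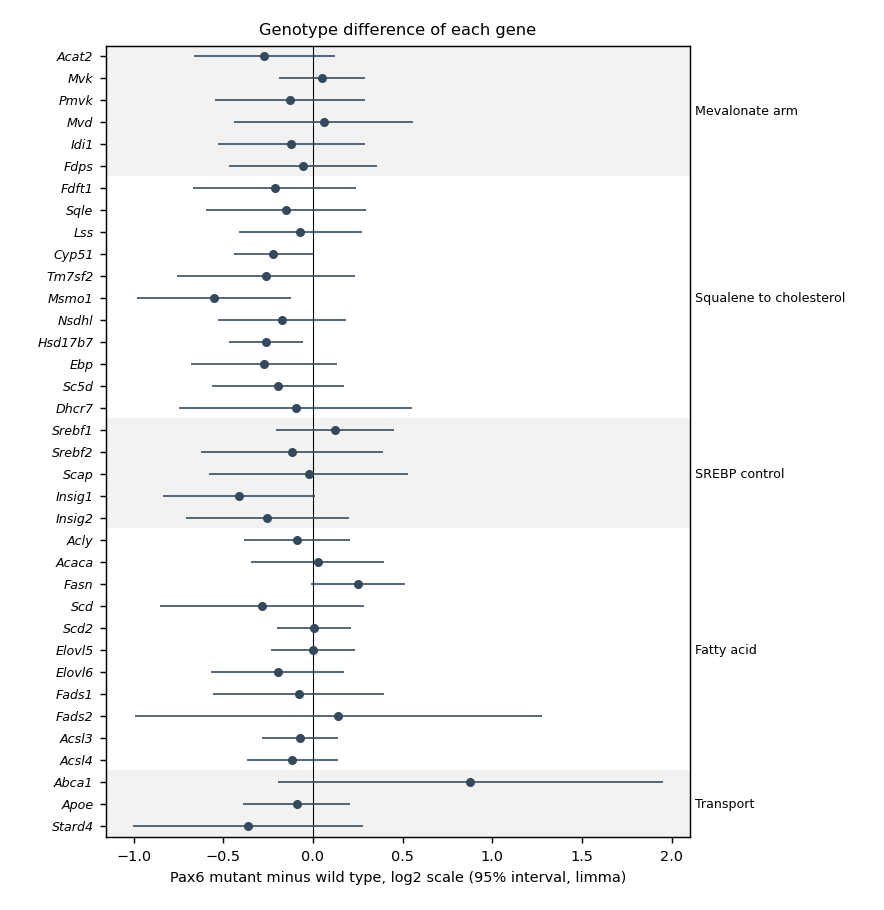
Log2 difference (Pax6 mutant minus wild type) for each gene (points) with its 95% interval from limma (bars, n = 2 arrays per genotype). The 11 genes from squalene to cholesterol all lie left of 0, and the bars of all but 3 of the 36 genes cross 0.

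The upstream sequences of genes with some of the largest differences are shown, since SREBP factors are known to act together with NF-Y, which binds CCAAT boxes. RefSeq's promoter table (build GRCr8) held 29 of the 36 genes, with windows from 250 bases before to 50 after the start. Of those 29 genes, 21 (72.4%) held CCAAT on either strand, against 39.6% of all 27457 genes of the table and 39.6% of the 8268 of them tested on the arrays. The sterol regulatory element letters TCACNCCAC, on either strand, were in 0 of 29, against 1.25% of all genes of the table. With at most 1 fixed letter changed, a search added after seeing the data, they were in 16 of 29 (55.2%), against 25.1% of all genes. No overlap between the CCAAT and TCACNCCAC matches was removed. The 21 genes with CCAAT had a median difference of -0.09 (16 lower) and the 8 without it -0.11 (6 lower). The 200 bases before the start follow for the genes with a difference of at least 0.3 without overlap, or with an unadjusted p under 0.05, that the table holds, 5′ to 3′ on the gene's strand, with CCAAT or its reverse complement in capitals. The lower genes Msmo1 and Hsd17b7 held 3 boxes each, Insig1 held 1, and neither the lower Cyp51 nor the higher Abca1 held any.
Msmo1 promoter (GRCr8 chr16:29746913-29747112, plus strand): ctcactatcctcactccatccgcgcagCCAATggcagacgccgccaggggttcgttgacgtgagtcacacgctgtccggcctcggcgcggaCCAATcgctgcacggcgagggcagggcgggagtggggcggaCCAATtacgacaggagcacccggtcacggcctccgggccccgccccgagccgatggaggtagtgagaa
Insig1 promoter (GRCr8 chr4:8057770-8057969, minus strand): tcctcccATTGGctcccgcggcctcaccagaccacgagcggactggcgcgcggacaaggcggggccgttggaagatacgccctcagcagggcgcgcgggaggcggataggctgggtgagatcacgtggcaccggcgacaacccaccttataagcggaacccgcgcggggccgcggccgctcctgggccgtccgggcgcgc
Hsd17b7 promoter (GRCr8 chr13:84722755-84722954, minus strand): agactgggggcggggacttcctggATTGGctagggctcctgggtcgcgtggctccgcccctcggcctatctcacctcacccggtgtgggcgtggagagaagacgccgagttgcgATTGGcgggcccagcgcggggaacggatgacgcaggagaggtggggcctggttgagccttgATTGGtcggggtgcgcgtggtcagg
Cyp51 promoter (GRCr8 chr4:30991493-30991692, plus strand): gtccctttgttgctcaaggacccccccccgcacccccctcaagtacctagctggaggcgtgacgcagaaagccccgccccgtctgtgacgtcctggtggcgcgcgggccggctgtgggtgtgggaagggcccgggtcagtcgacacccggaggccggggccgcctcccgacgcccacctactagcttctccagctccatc
Abca1 promoter (GRCr8 chr5:72596474-72596673, minus strand): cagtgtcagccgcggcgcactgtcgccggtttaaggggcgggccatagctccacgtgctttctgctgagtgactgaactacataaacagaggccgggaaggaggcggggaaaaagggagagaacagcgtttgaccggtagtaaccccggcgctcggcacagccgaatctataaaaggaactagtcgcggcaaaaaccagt

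The steps from squalene to cholesterol were the most uniform group. All 11 genes were lower in the mutant, with a median of -0.21 and differences from -0.55 to -0.07. Both mutant arrays lay below both wild-type arrays for 6 of them (54.5%, against 12.1% of all tested genes). In limma 3 were lower with an unadjusted p under 0.05 (27.3%, against 1.81%). All 18 tested probe sets of these 11 genes were lower, where 50% of all tested probe sets were. Without wild-type replicate 2 the median was -0.11 and 10 of 11 were lower, with Dhcr7 on the other side at 0.16. Without wild-type replicate 1 the median was -0.32, and without mutant replicate 2 Lss was on the other side at 0.04.

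Msmo1, the sterol-C4-methyl oxidase that starts removal of the methyl groups at carbon 4, had the largest difference of these 11 genes. It read 10.90 and 10.60 in the mutant arrays, against 11.34 and 11.26 in the wild-type arrays. The groups did not overlap, and mutant replicate 2 was the lowest. The means were 10.75 ± 0.21 in the mutant and 11.30 ± 0.06 in wild type (SD, n = 2 each), a 1.47-fold lower level. The difference was -0.55 (SE 0.14, 95% interval -0.98 to -0.12; limma unadjusted p = 0.0252, adjusted p = 1). With any 1 array left out it ran from -0.70 to -0.40.

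Hsd17b7, the 3-ketosteroid reductase of the same demethylation complex, had the least spread. It read 7.88 and 7.86 in the mutant, against 8.14 and 8.12 in wild type. Replicates lay close together and the groups were clearly apart, with a difference of -0.26 (SE 0.07; limma unadjusted p = 0.0268, adjusted p = 1). Its second probe set, with 6.32 and 6.41 in the mutant and 6.65 and 6.59 in wild type, also differed by -0.26. Nsdhl, the dehydrogenase that acts between these 2 enzymes, differed by -0.17 (SE 0.12) and its arrays overlapped.

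Cyp51, the lanosterol 14-alpha-demethylase, read 11.72 and 11.79 in the mutant, against 11.98 and 11.97 in wild type. The groups did not overlap, and the difference was -0.22 (SE 0.07; limma unadjusted p = 0.0499, adjusted p = 1). Its other probe set differed by -0.01 and its arrays overlapped, so the probe sets of Cyp51 disagree. The one that does not overlap carries the _s_at suffix, which in Affymetrix naming marks probes shared by several transcripts.

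The remaining genes of this segment had smaller or less even differences. Fdft1, squalene synthase, differed by -0.21 (SE 0.15) and Ebp, the sterol isomerase, by -0.27 (SE 0.13), without overlap between genotypes. In Ebp the mutant arrays were at 7.78 and 7.74, against 7.89 and 8.18 in wild type, so that wild-type replicate 2 set most of the difference, which was -0.13 without it. Fdft1 depended on that array more, at -0.04 without it and at -0.38 when wild-type replicate 1 was left out. Sc5d, the sterol-C5-desaturase, differed by -0.19 (SE 0.12) in its brightest probe set and by -0.13 in both others. The sterol reductase Tm7sf2 differed by -0.26 (SE 0.16), with overlap. Sqle, squalene epoxidase, differed by -0.15 (SE 0.15) and Lss, which closes the rings to lanosterol, by -0.07 (SE 0.11). Dhcr7, which reduces 7-dehydrocholesterol to cholesterol, read 9.64 in both mutant arrays, between the wild-type values of 9.47 and 9.99. Its difference of -0.10 (SE 0.21) was therefore within the spread of the wild-type arrays.

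The mevalonate arm, upstream of squalene, was less uniform. The median of its 6 genes was -0.09, or 0.04 without mutant replicate 2. Of these genes 4 were lower (66.7%, against 49.4% of all tested genes). Acat2, the cytosolic acetoacetyl-CoA thiolase at the entry of the pathway, was the 1 gene lower without overlap (16.7%, against 12.1% of all tested genes). It read 11.80 and 11.52 in the mutant, against 11.92 and 11.95 in wild type, a difference of -0.27 (SE 0.13; limma unadjusted p = 0.119) that was -0.13 without mutant replicate 2 and -0.41 without mutant replicate 1. Pmvk, phosphomevalonate kinase, differed by -0.13 (SE 0.14). Idi1, the isopentenyl-diphosphate isomerase, differed by -0.12 (SE 0.13). Fdps, farnesyl-diphosphate synthase, differed by -0.06 (SE 0.14). The decarboxylase Mvd (0.06, SE 0.16) and mevalonate kinase Mvk (0.05, SE 0.08) lay on the other side, but a second Mvk probe set differed by -0.23. Each of these 5 genes overlapped between genotypes, and none of the 6 passed in limma (adjusted p = 1).

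**Figure D3:**
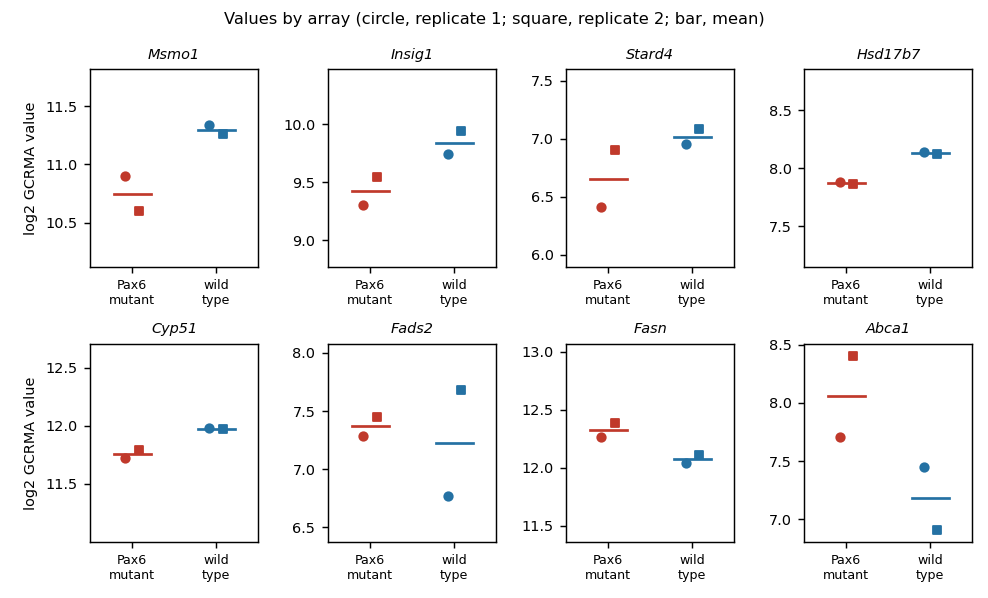
Log2 GCRMA values (vertical axes, each spanning the same range) of the 8 genes named by the fixed rule, with the Pax6 mutant left of the wild type, circles for replicate 1, squares for replicate 2 and bars for the mean. Only Fads2 overlaps between the genotypes, and the wild-type values of Fads2 and both groups of Abca1 are the most spread.

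Among the regulators, the retention factor Insig1 was lower in the mutant without overlap, while the arrays of both SREBP genes overlapped. None of the 5 regulators passed in limma (adjusted p = 1). Insig1 read 9.31 and 9.55 in the mutant, against 9.74 and 9.94 in wild type. Both mutant arrays lay below both wild-type arrays, with means of 9.43 ± 0.17 in the mutant and 9.84 ± 0.14 in wild type (SD, n = 2 each). The difference was -0.41 (SE 0.14, 95% interval -0.84 to 0.01; limma unadjusted p = 0.0538, adjusted p = 1), a 1.33-fold lower level. It ran from -0.53 to -0.29 with any 1 array left out. Insig2, the second retention factor, differed by -0.26 (SE 0.15) without overlap, but its other probe set differed by 0.09.

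Srebf2, the main activator of the cholesterol branch, differed by -0.12 (SE 0.17). Mutant replicate 1 was the lowest array at 8.66, but mutant replicate 2 was at 9.04, above both wild-type arrays at 8.97. Srebf1, which favours the fatty acid branch, differed by 0.12 (SE 0.11), and its second probe set by 0.22. The escort protein gene Scap differed by -0.02 (SE 0.18) in one probe set and by 0.22 in the other. The median of the 5 regulators was -0.12, with 4 lower (80%, against 49.4% of all tested genes). It was 0.07 without mutant replicate 1 and -0.31 without mutant replicate 2.

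Of the 11 fatty acid synthesis genes, 6 were lower in the mutant and 5 higher, with a median of -0.07. The split depended on the setting, with 9 lower without wild-type replicate 1 and 9 lower with the mean of each gene's tested probe sets. Without overlap, 4 were lower (36.4%, against 12.1% of all tested genes) and 1 was higher (9.09%, against 12.2%). Fasn, fatty acid synthase, was the 1 gene of the branch that was higher without overlap. It read 12.27 and 12.39 in the mutant, against 12.04 and 12.11 in wild type. The difference of 0.25 (SE 0.09, 95% interval -0.01 to 0.51) had a limma unadjusted p of 0.055 and an adjusted p of 1. A second Fasn probe set differed by 0.15, with 9.36 and 9.59 in the mutant and 9.25 and 9.40 in wild type, which overlap. The genes of the 2 enzymes that feed fatty acid synthase overlapped between genotypes. Acly, ATP citrate lyase, differed by -0.09 (SE 0.10), and Acaca, acetyl-CoA carboxylase, by 0.03 (SE 0.12).

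The desaturases and elongases differed among themselves. Scd, a stearoyl-CoA desaturase, read 9.30 and 9.37 in the mutant, against 9.40 and 9.84 in wild type. The groups did not overlap, but the difference of -0.28 (SE 0.19) rested on wild-type replicate 2 and was -0.06 without it. The related desaturase Scd2 read between 14.00 and 14.01 in all 4 arrays (difference 0.005, SE 0.07). Its next probe sets differed by -0.07 and -0.18. Whether probes of Scd and Scd2 also bind each other's transcripts was not tested. Elovl6, which elongates saturated chains, differed by -0.20 (SE 0.12) without overlap, and a second probe set by -0.12. Elovl5, which elongates polyunsaturated chains, differed by 0.002 (SE 0.08), with a 95% interval from -0.23 to 0.24.

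The front-end desaturase Fads2 read 7.29 and 7.45 in the mutant, against 6.76 and 7.69 in wild type. Both mutant arrays lay between the wild-type arrays, and the difference of 0.14 (SE 0.37) was -0.32 without wild-type replicate 1. Its partner Fads1 differed by -0.08 (SE 0.16). The acyl-CoA synthetases Acsl3 (-0.07, SE 0.07) and Acsl4 (-0.12, SE 0.08), which activate fatty acids, were lower without overlap, each by less than 0.2. None of the 11 genes passed in limma (adjusted p = 1).

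Lipid transport genes went separate ways. Abca1, a cholesterol exporter, had the largest difference of all 36 genes. It read 7.71 and 8.40 in the mutant, against 7.45 and 6.91 in wild type. The groups did not overlap, but the arrays of each genotype were far apart, with means of 8.06 ± 0.49 in the mutant and 7.18 ± 0.39 in wild type (SD, n = 2 each). The difference was 0.88 (SE 0.35, 95% interval -0.20 to 1.95; limma unadjusted p = 0.0817, adjusted p = 1), a 1.84-fold higher level. It ran from 0.53 to 1.23 with any 1 array left out. Its other 3 probe sets were also higher in the mutant, by 0.22, 0.38 and 0.68. The last of them did not overlap between genotypes, with 3.48 and 4.51 in the mutant and 3.36 and 3.27 in wild type. Apart from mutant replicate 2, these values lay close to the level under which probe sets were dim. Mutant replicate 2 thus set most of that difference. Abca1 is also expressed by vessel cells and macrophages. All 9 endothelial markers had a higher mean in the mutant, by 0.004 to 0.65, where 49.9% of all tested genes did. Of the 9, 4 were higher without overlap between genotypes (44.4%, against 12.2% of all tested genes). Of the 10 macrophage markers, 8 were dim. The part of such cells in the Abca1 difference was not tested.

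Stard4, a carrier of cholesterol between membranes, read 6.41 and 6.90 in the mutant, against 6.95 and 7.09 in wild type. The groups did not overlap, though mutant replicate 2 lay close to wild-type replicate 1. The difference was -0.36 (SE 0.21; limma unadjusted p = 0.175, adjusted p = 1), and it was -0.12 without mutant replicate 1. A second Stard4 probe set differed by -0.11 with overlap. Apoe, the apolipoprotein that carries cholesterol between brain cells, differed by -0.09 (SE 0.10), with 7.83 in 3 arrays and 8.01 in wild-type replicate 2.

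Probe sets of the same gene gave a further view. Of the 58 tested probe sets, 41 were lower in the mutant (70.7%) against 50% of all 18625 tested probe sets, and 5 others were dim. Among 18 genes with several tested probe sets, 11 had all of them on the same side. The 7 with mixed signs were Acaca, Elovl5, Idi1, Insig2, Mvk, Scap and Scd2. Of the 11, Abca1, Fasn and Srebf1 were higher in every probe set, and Stard4, Elovl6 and 6 genes from squalene to cholesterol were lower in every probe set. In Cyp51 and Fdft1 the second probe set was at -0.01 and -0.02.

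**Figure D4:**
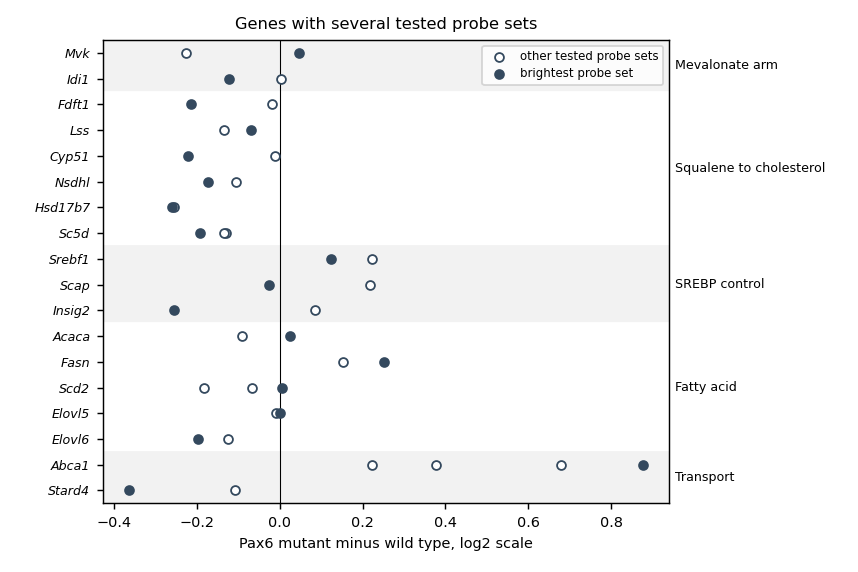
Log2 difference (Pax6 mutant minus wild type) for the 18 genes with several tested probe sets, with filled points for the brightest probe set and open points for the others (2 open points of Sc5d nearly coincide). All probe sets of the 6 genes from squalene to cholesterol lie left of 0, and 7 genes have points on both sides.

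Other genes of the same pathways lay on both sides of 0. Of 39 listed, 30 had a probe set of their own and 24 were tested. In the mutant 11 were lower (45.8%, against 49.4% of all tested genes) and 13 higher. The median was 0.01, and 0 passed in limma (smallest adjusted p = 1). The 12 tested genes of sterol handling, among them the SREBP proteases Mbtps1 (-0.02) and Mbtps2 (-0.06) and the acyltransferase Soat1 (0.04), had 6 lower and 6 higher. Acsl1, an acyl-CoA synthetase, read 7.03 and 7.17 in the mutant, against 6.72 in both wild-type arrays, a difference of 0.38 (SE 0.09; limma unadjusted p = 0.0185). Me1, malic enzyme, which supplies NADPH, read 5.68 and 5.58 in the mutant, against 6.09 and 5.93 in wild type, a difference of -0.38 (SE 0.10; limma unadjusted p = 0.0282). Its other probe set differed the other way, by 0.23 with overlap, and the mean of both by -0.08. The second Acsl1 probe set differed by 0.14 without overlap. Mylip, an LXR-induced ligase that degrades lipoprotein receptors, read 3.82 and 4.12 in the mutant, against 3.07 and 3.82 in wild type. These values lay close to the dim level of 3.21, and wild-type replicate 1 lay under it. The Mylip difference was 0.53 (SE 0.32) with overlap, and 0.23 with a pseudocount of 16. It was 0.15 with wild-type replicate 1 left out and 0.90 with wild-type replicate 2 left out. Nr1h2, which encodes a sterol-sensing LXR receptor, differed by -0.20 (SE 0.24) with overlap. Abcg1, another exporter, read 4.75 and 4.85 in the mutant, against 4.26 and 4.73 in wild type, a difference of 0.30 (SE 0.20). Abcg1 was chosen after its values were seen.

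**Figure D5:**
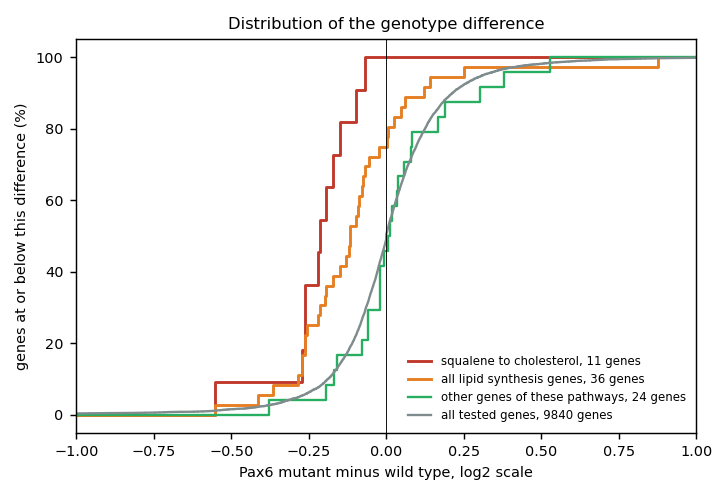
Cumulative share of genes (vertical axis, percent) at or below each difference of Pax6 mutant minus wild type (horizontal axis, log2 scale, shown from -1 to 1). The curve of the 11 genes from squalene to cholesterol reaches its top left of 0, 75% of the 36 lipid synthesis genes lie below 0, against 49.4% of all 9840 tested genes, and the 24 other pathway genes lie near the curve of all tested genes.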

How the data were processed

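Per the labels, telencephalon RNA of both genotypes was made into biotin-labelled cRNA and hybridised to Affymetrix arrays, 1 RNA to an array. Each probe set has 1 log2 value per array in the deposited table. Per the submitters' processing notes, the authors used GCRMA, of which no version is given in the sources used here. GCRMA models background on probe sequence, quantile-normalizes the arrays and combines the probes of a set, which pulls dim probe sets to a shared low value. That the scale is log2 was taken from the range of the values (lowest 2.07 on all arrays). Arrays give no depth, and their number limits the precision.

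Probe sets with a mean under the 40th percentile (3.21) were dim, and 18625 of 31042 were tested. Symbols came from the platform annotation, and all 63 probe sets of the listed genes matched the RefSeq gene table. limma 3.58.1 (R 4.3.3) fitted genotype with eBayes and Benjamini-Hochberg adjustment over all tested probe sets (threshold 0.05). With 2 arrays against 2, an exact permutation test can reach no two-sided p below 0.333 and was not used. The fit was also run on simulated arrays with independent, equal noise for all probe sets and with larger differences than most seen here. Noise on the real arrays is uneven, so that run does not show how well small differences are found here.

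The genes, lists and roles were chosen with earlier results of these data known. Per-array values were given for genes with an unadjusted p under 0.05, the 3 largest differences each way and non-overlapping differences of at least 0.3, and for some further genes chosen after their values were seen. Of other pathway genes, those with an unadjusted p under 0.05 and the 2 largest differences each way were named by rule. Alternatives covered the dim filter, a pseudocount of 16, normalization, a replicate block, each array left out and averaging of probe sets.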

Additional observations from a re-analysis of the deposited data

How the results depend on the processing

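With 2 arrays per genotype, small differences rest on single arrays. Over all tested probe sets, 0 passed the threshold as reported, against 1 with the stricter filter (60th percentile), 2 after quantile normalization and 2 after median centring. Of the 36 genes, 0 passed under any alternative run (smallest adjusted p = 0.556, Hsd17b7 with no filter on dim probe sets, in limma). The count of genes lower in the mutant ran from 25 to 31 over all alternatives. With 1 array left out, the median of the 36 genes ran from -0.198 to -0.0685, that of the mevalonate arm from -0.123 to 0.043, that of the regulators from -0.311 to 0.0725 and that of the fatty acid genes from -0.0938 to -0.0375. Genes with an unadjusted p under 0.05 in limma, 3 as reported, ran from 3 to 5 in the alternatives that kept all 4 arrays. The transport median was 0.39 with the stricter filter, which leaves out Stard4.

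The labels do not say that a replicate number marks a litter or day. Differences between the arrays numbered 1 and 2 correlated between genotypes (0.43 over 18625 probe sets). With the replicate number as a block, 5 genes had an unadjusted p under 0.05 in limma and 0 passed. Each number occurs once per genotype, so the block cannot change the differences, and the median of -0.12 was fixed in advance.

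Signs turned in the following cases, all far from the threshold; the cause was not tested. With 1 array left out, differences ran from -0.11 to 0.23 for Mvd, -0.31 to 0.077 for Srebf2, -0.24 to 0.19 for Scap, -0.27 to 0.026 for Idi1, -0.20 to 0.0905 for Fdps, -0.18 to 0.038 for Lss and -0.10 to 0.15 for Acaca. They ran from -0.037 to 0.041 for Elovl5, -0.26 to 0.10 for Fads1, -0.0036 to 0.099 for Mvk, -0.00175 to 0.011 for Scd2, -0.32 to 0.60 for Fads2, -0.35 to 0.16 for Dhcr7 and -0.43 to 0.042 for Nr1h2. With the mean of a gene's tested probe sets, Mvk was at -0.089, Scap at 0.096, Acaca at -0.033, Scd2 at -0.081 and Elovl5 at -0.0036, and Elovl5 was at -0.0002 after median centring.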
